A study of Mus musculus with 4 samples.

Results

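The trophectoderm regulators are 10 mouse genes for transcription factors: Tead4, Cdx2, Eomes, Gata3, Gata2, Elf5, Tfap2c, Tfap2a, Hand1 and Esx1. They were chosen by name, and every probe set that the platform annotation ties to 1 of them alone was used, which gave 20 of 45037 probe sets and 10 of 18193 genes. Of the 10 genes, 2 had 1 probe set, 6 had 2 and 2 had 3. RNA came from 3 embryonic stem cell (ESC) lines obtained by nuclear transfer (NT) and from the induced pluripotent stem cell (iPSC) clone that was their donor, with 1 array each. The NT-ESC lines 1, 2 and 3, named as subclones, were derived from cloned blastocysts made from the clone Adeno-1, which had been reprogrammed from tail-tip fibroblasts with adenoviral vectors. All 4 cultures were kept on irradiated feeder fibroblasts in medium with serum and LIF, and feeders were reduced by preplating. Strain, sex, passage and separate derivation of the lines are not given in the labels used here, so SDs, SEs and p-values below measure only the spread between these arrays, which may be technical.

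The trophectoderm is the outer epithelium of the blastocyst and founds the placenta. In mouse, Tead4 acts with the Hippo effectors Yap1 and Wwtr1 in outer cells to switch on Cdx2, and Cdx2, Eomes, Elf5, Gata3 and Tfap2c keep trophoblast stem cells in their state, while Pou5f1 in the inner cell mass opposes this programme. Several of these factors also work elsewhere: Eomes in mesoderm and endoderm, Gata2 and Gata3 in blood cells, Tfap2a in neural crest, Tfap2c in primordial germ cells and Hand1 in the heart.

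Promoter windows, running from 250 bases before to 50 bases after an annotated start, were found for 7 of the 10 genes in the RefSeq table of build GRCm38.p6. Shown are those of Cdx2 and Elf5, dim on the arrays, and of Eomes, which gave signal. The Cdx2 window lies at chr5:147307200-147307499 on the minus strand, and its capitals mark the octamer ATGCAAAT, the sequence that POU factors such as Oct4 recognise. The first of 2 Elf5 windows lies at chr2:103411848-103412147 and the Eomes window at chr9:118477939-118478238, both on the plus strand, and their capitals mark CpG dinucleotides.
Cdx2: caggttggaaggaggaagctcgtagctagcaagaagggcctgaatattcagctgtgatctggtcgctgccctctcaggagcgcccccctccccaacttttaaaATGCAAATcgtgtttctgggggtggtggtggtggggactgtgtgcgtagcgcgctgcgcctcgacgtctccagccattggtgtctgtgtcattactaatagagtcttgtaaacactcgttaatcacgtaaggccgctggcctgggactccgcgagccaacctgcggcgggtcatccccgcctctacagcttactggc
Elf5: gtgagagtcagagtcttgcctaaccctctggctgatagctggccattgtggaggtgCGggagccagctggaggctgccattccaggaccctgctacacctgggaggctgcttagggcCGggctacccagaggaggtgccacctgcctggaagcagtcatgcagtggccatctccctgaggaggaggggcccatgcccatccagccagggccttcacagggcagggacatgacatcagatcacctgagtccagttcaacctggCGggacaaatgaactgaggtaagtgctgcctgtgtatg
Eomes: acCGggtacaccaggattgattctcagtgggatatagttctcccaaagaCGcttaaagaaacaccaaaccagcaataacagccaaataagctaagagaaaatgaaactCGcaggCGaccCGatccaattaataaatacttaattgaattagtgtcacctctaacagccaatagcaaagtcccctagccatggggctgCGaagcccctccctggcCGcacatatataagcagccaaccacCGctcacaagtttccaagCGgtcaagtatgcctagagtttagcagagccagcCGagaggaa

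The octamer, searched on both strands, began 147 bases before the Cdx2 start and was present in 1.74% of all 32851 windows of this length. No other member window held it. The first Elf5 window had 3 CpG dinucleotides and the second 10, the Eomes window 10, the Tfap2a windows 11 and 15, the Cdx2 window 18, the Gata3 window 22, the Esx1 window 24 and the Gata2 windows 32 and 29, against a median of 7 over all windows. The first Elf5 window was the 1 member window below that median. The TFAP2 palindrome GCCNNNGGC occurred 3 times in the Gata3 window and 1 time each in the Cdx2 window and the second Gata2 window, and 16.6% of all windows held it. The TEAD letters GGAATG, on either strand, were in the first Elf5 window, the second Gata2 window and 14.7% of all windows. The letters AGATAA, for which GATA factors are known, were in no member window and in 11.2% of all windows. The T-box letters TCACACCT were likewise in none and in 1.28% of all. These matches describe letters, not binding.

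Values are levels on the log2 intensity scale with each array's mean set to an assumed 7, because the deposited table holds log intensities only relative to the array mean. Log2 differences are 14.3% smaller with an assumed mean of 6 and 12.3% larger with the mean that puts the brightest probe set at the 16-bit limit. No detection calls were used. As a guide to background, the 95th percentile of 44 probe sets for 39 olfactory receptor genes was taken, which lay at 7.15, 7.35 and 7.16 on the arrays of lines 1, 2 and 3 and at 7.29 on that of the clone. Levels of different probe sets are not amounts of RNA and are not ranked against each other.

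The labelled cell type was checked first. The 5 stem cell markers Pou5f1, Nanog, Sox2, Zfp42 and Esrrb were above the olfactory receptor limit on all arrays, and Pou5f1 averaged 12.22 ± 0.02 (SD, n = 3) in the lines and 12.22 in the clone. Of 4 measured trophoblast markers Ascl2 was above the limit on all arrays, and Tpbpa, Plac1 and Krt7 were below it on all. None of 5 primitive endoderm and 3 mesendoderm markers was above it on any array, but of the longer lists 6 of 15 genes of definitive and primitive endoderm and 5 of 18 of mesoderm and mesendoderm were above it on all, against 53.4% of all genes. Of 7 feeder markers 5 were above it on all arrays, and Lum was below it on all. For Col1a1 the clone was the lowest array, with 9.87 against 9.95 to 10.18 in the lines. The same held for Col1a2 (10.80 against 10.81 to 11.11), Col3a1 (9.44 against 9.48 to 9.89) and Dcn (7.28 against 7.29 to 7.31). For Thy1 the clone was highest, and for Postn and Lum it lay between the lines. Feeder content was not tested.

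The first question was which regulators give signal in pluripotent lines. Tead4, Eomes, Gata2, Tfap2c and Hand1, 5 of the 10 genes, had a probe set above the olfactory receptor limit on all 4 arrays. By their brightest probe set 53.4% of all genes were above it, so the regulators were near the common share. By probe set 8 of 20 were above it on all arrays, against 38.3% of all probe sets. With the 99th percentile as limit 4 of the genes remained, and Gata2 did not. Esx1 was above the limit in the 3 lines and just below it in the clone. Cdx2, Elf5, Gata3 and Tfap2a were below it on every array with all 8 of their probe sets. The limit is only a guide, and whether a gene above it is transcribed in these cells was not tested. Of 55 genes of mesoderm, endoderm, neural crest or blood, 17 (30.9%) were also above it on all arrays, among them the basement membrane genes Lama1, Lamb1, Col4a1 and Col4a2 and Sox10, a neural crest factor, at 8.06, 8.02 and 8.24 in the lines and 8.22 in the clone.

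**Figure D1:**
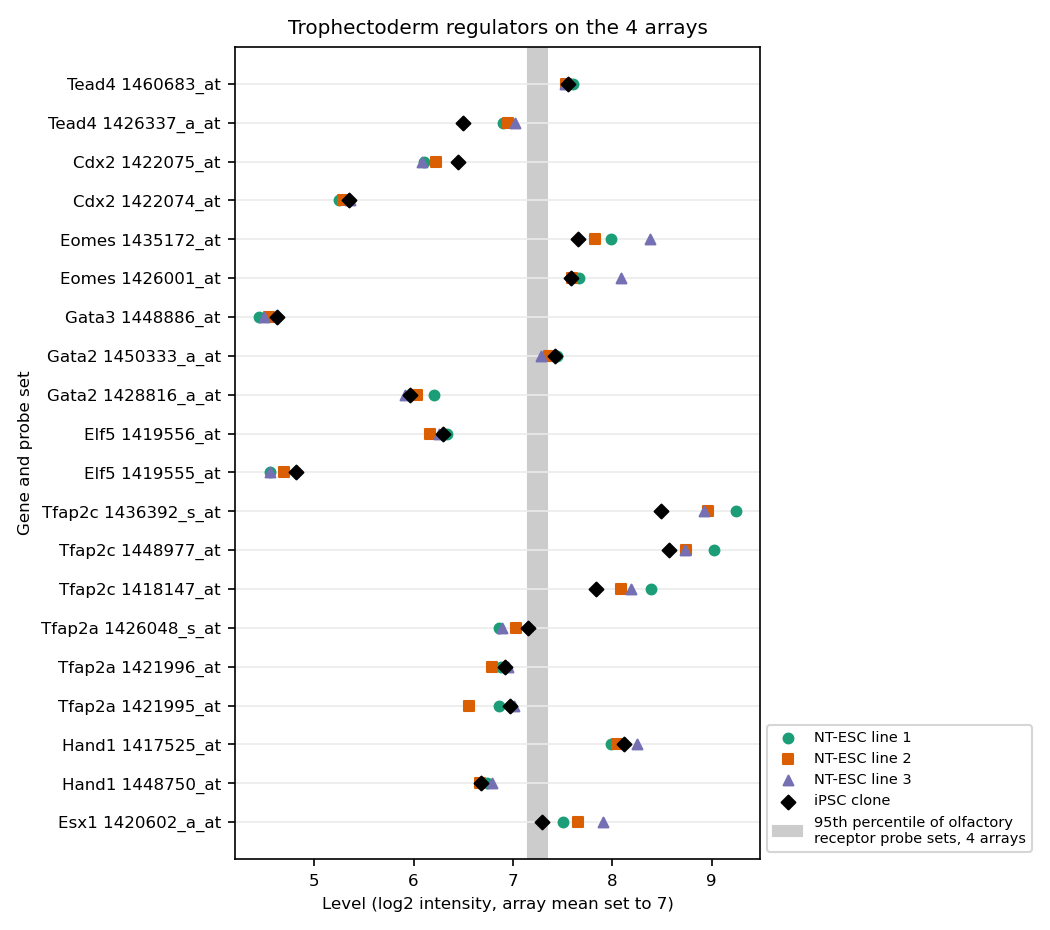
Level of the 20 probe sets on the 4 arrays (x axis, log2 intensity with the array mean set to 7; 1 point per array), with the olfactory receptor limits, 7.15 to 7.35, as a grey band. Tfap2c and Eomes lie above the limit with every probe set, and Cdx2, Gata3 and Elf5 lie below it.

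**Figure D2:**
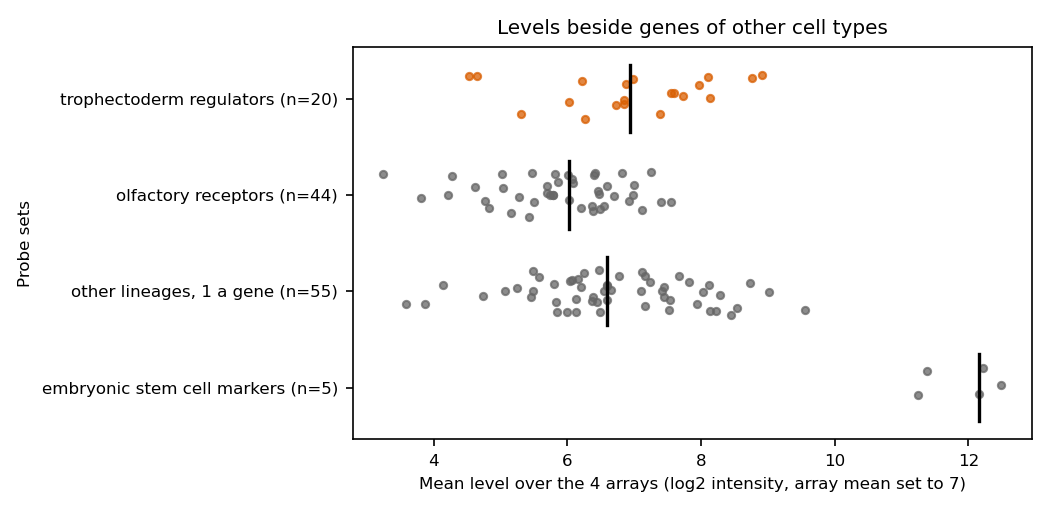
Mean level over the 4 arrays (log2 intensity with the array mean set to 7) for the 20 regulator probe sets, 44 olfactory receptor probe sets, 55 genes of other lineages and 5 stem cell markers; each point is a probe set and black bars are medians. The points run from 4.53 to 8.91 for the regulators, from 3.25 to 7.54 for the olfactory receptors, from 3.58 to 9.55 for the other lineages and from 11.24 to 12.49 for the stem cell markers; they are signals of different probe sets, not amounts of RNA.

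Tead4, the DNA-binding partner of Yap1 and Wwtr1, gave different answers with its 2 probe sets. Levels of 1426337_a_at were 6.90, 6.95 and 7.02 in lines 1, 2 and 3, against 6.50 in the clone. Every line was above the clone, by 0.46 ± 0.09 (SE) on the log2 scale or 1.38-fold, which did not pass limma's test (Benjamini-Hochberg adjusted p = 0.849). Levels of 1460683_at were 7.61, 7.53 and 7.52 in the lines, against 7.55 in the clone, and the groups overlapped. The probe set that separated the groups was the dimmer one, below the olfactory receptor limit on all arrays. Which transcripts each detects was not tested.

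Cdx2, the caudal homeobox factor that specifies trophectoderm and whose promoter window holds the octamer, was dim. Levels of 1422075_at were 6.11, 6.23 and 6.08 in the lines, against 6.45 in the clone, and 59.1% of the olfactory receptor probe sets were dimmer. The clone was the highest array, with a log2 difference of -0.31 ± 0.10 (SE; limma, Benjamini-Hochberg adjusted p = 0.849). Levels of 1422074_at were 5.25, 5.29 and 5.36 in the lines, against 5.35 in the clone, which lay within the range of the lines.

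Eomes, a T-box factor needed for trophoblast outgrowth, was highest in line 3 with both probe sets. Levels of 1435172_at were 7.99, 7.83 and 8.38 in the lines, against 7.65 in the clone. Levels of 1426001_at were 7.67, 7.59 and 8.09 in the lines, against 7.59 in the clone. The clone was the lowest array in both, though line 2 nearly equalled it in the second. The log2 differences were 0.41 ± 0.21 and 0.19 ± 0.20 (SE; limma, Benjamini-Hochberg adjusted p = 0.858 and 0.915). They depended on line 3: without it they were 0.25 and 0.04. Of genes of mesoderm and mesendoderm, tissues that also use Eomes, Mixl1, Mesp1 and Gsc were below the olfactory receptor limit on every array, and Mesp2, Kdr, Foxf1, Nkx2-5 and Msx1 were above it on all.

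Gata3, a zinc finger factor that acts beside Cdx2, was dim, with 4.45, 4.54 and 4.49 in the lines against 4.62 in the clone. The clone was the highest array, and 9.09% of the olfactory receptor probe sets were dimmer than Gata3. Its relative Gata2, a factor of trophoblast giant cells and blood stem cells, had 7.45, 7.37 and 7.28 with 1450333_a_at in the lines, against 7.42 in the clone. The groups overlapped, and each array was close to the limit. With 1428816_a_at Gata2 had 6.21, 6.04 and 5.91 in the lines, against 5.96 in the clone, again with overlap.

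Elf5, an ETS factor whose promoter is methylated in mouse embryonic stem cells, was dim with both probe sets. Levels of 1419555_at were 4.55, 4.70 and 4.56 in the lines, against 4.81 in the clone, which was the highest array. Levels of 1419556_at were 6.34, 6.16 and 6.25 in the lines, against 6.30 in the clone, with overlap.

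Tfap2c, which encodes AP-2 gamma, was above the limit with all 3 of its probe sets. Levels of 1436392_s_at were 9.25, 8.97 and 8.92 in the lines, against 8.49 in the clone. Those of 1448977_at were 9.03, 8.74 and 8.73 in the lines, against 8.57 in the clone. Those of 1418147_at were 8.39, 8.09 and 8.19 in the lines, against 7.84 in the clone. In all 3 the clone was the lowest array and line 1 the highest, without overlap of the groups. The log2 differences were 0.56 ± 0.14, 0.26 ± 0.14 and 0.39 ± 0.13 (SE), and none passed limma's test (Benjamini-Hochberg adjusted p = 0.849, 0.858 and 0.849). Without line 1 the difference of 1448977_at was 0.16. The 3 probe sets read RNA of 1 gene on the same arrays and are not independent of each other.

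Its paralogue Tfap2a, a regulator of neural crest and surface ectoderm, was below the limit on every array. Levels of 1426048_s_at were 6.86, 7.03 and 6.89 in the lines, against 7.16 in the clone, the highest array. Those of 1421996_at were 6.88, 6.79 and 6.95 in the lines, against 6.92 in the clone, and those of 1421995_at were 6.86, 6.55 and 7.01 in the lines, against 6.97 in the clone. In these 2 the clone lay between the lines. The family members Tfap2b, Tfap2d and Tfap2e were below the limit on every array too.

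Hand1, a helix-loop-helix factor needed for trophoblast giant cells, did not separate the groups. Levels of 1417525_at were 7.99, 8.05 and 8.25 in the lines, against 8.11 in the clone. Those of 1448750_at were 6.74, 6.67 and 6.79 in the lines, against 6.68 in the clone, below the limit on every array. Signal for Hand1 thus rests on 1 of its 2 probe sets.

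Esx1, an X-linked homeobox gene of the placenta, had 7.51, 7.65 and 7.91 in the lines, against 7.29 in the clone. Every line was above the clone and line 3 was highest. The log2 difference was 0.40 ± 0.16 (SE; limma, Benjamini-Hochberg adjusted p = 0.849).

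The second question was how the NT-ESC lines differed from the clone over all 20 probe sets. By limma with Benjamini-Hochberg adjustment 0 passed, as did 0% of all 45037 probe sets. At an unadjusted p under 0.05, 4 were higher in the lines (2 of Tfap2c and 1 each of Tead4 and Esx1), against 3.44% of all probe sets, and 1 was lower (Cdx2), against 2.36%. Every line was above the clone in 7 of the 20, against 23.8% of all probe sets, and below it in 4, against 27.5%. The 7 belonged to Tfap2c, Eomes, Esx1 and Tead4, and the 4 to Cdx2, Gata3, Elf5 and Tfap2a. The median log2 difference was -0.00986 over the 20 and -0.00771 over all probe sets. In such bulk samples fewer cells with a transcript and less transcript per cell cannot be told apart.

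**Figure D3:**
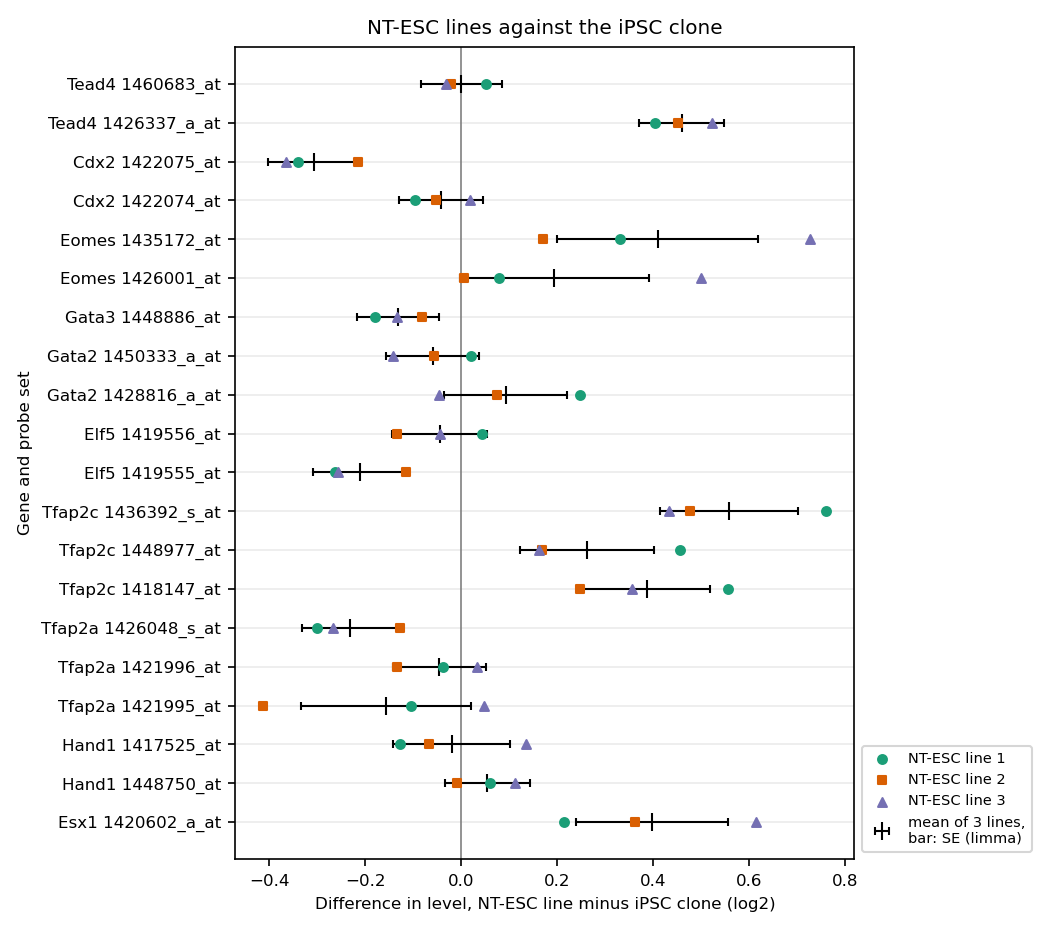
Difference in level of each NT-ESC line from the iPSC clone (x axis, log2; coloured points are lines 1, 2 and 3), with the mean of the lines and its SE from limma in black. All lines lie above 0 for Tfap2c, Eomes, Esx1 and Tead4 1426337_a_at, and below 0 for Cdx2 1422075_at, Gata3, Elf5 1419555_at and Tfap2a 1426048_s_at.

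Each line was then set against the clone, 1 array on each side and without a test, at 1.5-fold with the brighter array at or above the median of all probe sets. In line 1 Tfap2c 1436392_s_at was past this limit, 1.70-fold over the clone, where 0.189% of all probe sets were as much higher. In line 2 no member was, against 0.0888%. In line 3 Eomes 1435172_at was 1.66-fold and Esx1 1.53-fold over the clone, against 0.615%. None was as far below the clone in any line, against 0.0555%, 0.04% and 0.315% of all probe sets in lines 1, 2 and 3. The mean absolute log2 difference of the 20 was 0.234, 0.169 and 0.248 in lines 1, 2 and 3, against 0.118, 0.117 and 0.132 over all probe sets. Differences between the lines were not tested.

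In the 4 dim genes all 8 differences were negative, from -0.31 to -0.04, and the clone was the highest array in 4 of 8. Among the 12 probe sets of the other 6 genes the clone was the lowest array in 7 and the highest in 0. Within genes the order varied. The dimmer probe sets of Tead4, Gata2, Hand1 and Cdx2 had the higher differences, 0.46, 0.09, 0.05 and -0.04. Their brighter ones had 0.00, -0.06, -0.02 and -0.31. The differences of Gata2 and Hand1 were smaller than their SEs. In Eomes and Elf5 the brighter probe set had the higher difference, 0.41 against 0.19 and -0.04 against -0.21. The brightest of 3 had the highest difference in Tfap2c, 0.56, and the lowest in Tfap2a, -0.23. Over all probe sets of the table there was a small tilt with level. Below a mean level of 5 the median difference was -0.03 and the clone was highest in 34.1%. At mean levels of 5 to 6 these were -0.03 and 33.1%. At 6 to 7 they were -0.02 and 31.5%, and the clone was lowest in 19.2%. At 7 to 8 the median was -0.00174, and the clone was lowest in 24.98% and highest in 25.4%. At 8 to 9 the median was 0.02, and the clone was lowest in 32.01% and highest in 19.1%. At 9 or above the median was 0.03 and the clone was lowest in 33.9%. The mean levels of the members, however, ran only from 4.53 to 8.91. The part of this tilt in the members' differences was not tested. With quantile normalization, which gives the arrays 1 distribution, the difference was 0.52 for Tfap2c 1436392_s_at and -0.29 for Cdx2 1422075_at. That of Gata3 went from -0.13 to -0.10, that of Cdx2 1422074_at from -0.04 to -0.02 and that of Tead4 1426337_a_at from 0.46 to 0.47. These values are no test of the tilt.

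Other genes of the pathway were read from named lists, with the brightest probe set of each gene. None of their probe sets passed (limma, smallest Benjamini-Hochberg adjusted p = 0.849), and the median difference over all 18193 genes was -0.00311. The Hippo pathway and Tead family, the setting of Tead4, had 21 measured genes and a median difference of 0.05, with 2 higher and 0 lower at an unadjusted p under 0.05, against 3.26% and 1.9% of all genes. The list counts Tead4 itself and a gene with the symbol Taz that is separate from Wwtr1. Wwtr1, which encodes the coactivator Taz, had 9.43, 9.28 and 9.38 in the lines, against 9.03 in the clone. Amotl1, an angiomotin that binds Yap1, had 8.81 to 8.95 in the lines, against 8.65. Every line was above the clone for both. Tead1 had 10.19 to 10.23 in the lines, against 10.02 in the clone, and Ccn2, a Yap1 target, 9.83 to 10.41 in the lines, against 10.01 in the clone.

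Other regulators of trophoblast stem cells, 20 measured genes, had a median difference of 0.09, with 4 higher and 1 lower at an unadjusted p under 0.05, against 3.26% and 1.9% of all genes. The list holds Esrrb and Zfp42, which pluripotent cells also use. Bmp4, which encodes a BMP ligand, had 9.72, 9.40 and 9.50 in the lines, against 9.18 in the clone. Fgfr2, the receptor through which FGF4 sustains trophoblast stem cells, had 7.84, 7.76 and 7.63 in the lines, against 8.05 in the clone, and there the clone was highest. Ddah1 had 10.61 to 10.80 in the lines, against 10.31 in the clone, and the convertase gene Pcsk6 8.64 to 8.93 in the lines, against 8.41 in the clone.

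Genes of differentiated trophoblast and placenta, 18 measured, had a median difference of -0.04, with 1 higher and 2 lower at an unadjusted p under 0.05, against 3.26% and 1.9% of all genes. Of these 5 were above the olfactory receptor limit on all arrays, against 53.4% of all genes. Phlda2, an imprinted gene that restrains placental growth, had 9.40, 9.55 and 9.28 in the lines, against 9.88 in the clone, the highest array. Plac8 had 7.84 to 7.99 in the lines, against 8.11 in the clone. Psg23 had 7.40 to 7.59 in the lines, against 7.23 in the clone, and Mmp9 7.33 to 7.45 in the lines, against 7.30 in the clone, both near the limit.

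Epithelial genes of the trophectoderm, 19 measured, had a median difference of 0.05, with 1 higher and 0 lower at an unadjusted p under 0.05, against 3.26% and 1.9% of all genes. The gene counted as higher is not among those named next. Krt8, a keratin of simple epithelia, had 9.62, 9.35 and 8.41 in lines 1, 2 and 3, against 8.39 in the clone, and its partner Krt18 had 9.37, 9.08 and 8.01 in the lines, against 8.30 in the clone. Line 1 was highest for both, and line 3 was the lowest of the lines. Krt19 had 7.25 to 7.99 in the lines, against 7.08 in the clone, and the tight junction gene Cldn6 8.60 to 9.10 in the lines, against 9.23 in the clone.

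Genes known to hold trophectoderm genes silent in pluripotent cells, 17 measured, were all above the limit, against 53.4% of all genes. Their median difference was 0.04, with 1 higher and 0 lower at an unadjusted p under 0.05, against 3.26% and 1.9% of all genes. The 1 was Suz12, a Polycomb subunit, with 10.90, 10.84 and 10.92 in the lines, against 10.58 in the clone. The DNA methyltransferase gene Dnmt3b had 11.46, 11.27 and 10.81 in the lines, against 11.54 in the clone, and Dnmt3a 10.02, 10.02 and 10.50 in the lines, against 10.50 in the clone. Nr0b1, a partner of Pou5f1, had 10.11 to 10.68 in the lines, against 10.73 in the clone.

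**Figure D4:**
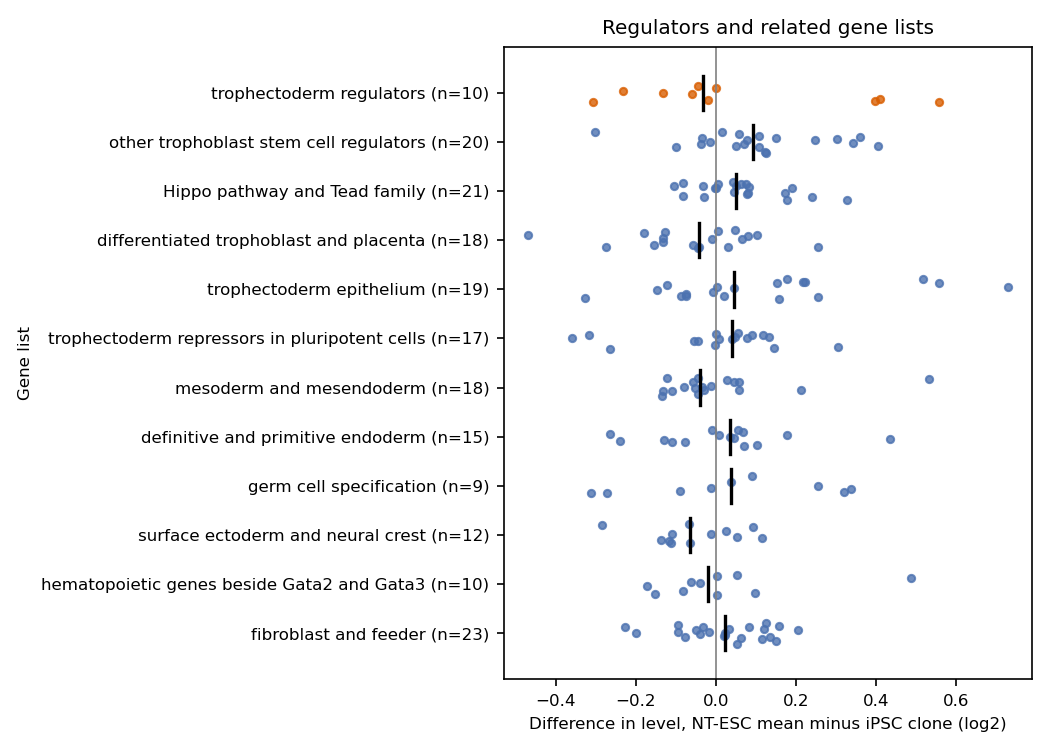
Difference in level between the mean of the NT-ESC lines and the iPSC clone (x axis, log2) for the brightest probe set of each gene, by list; points are genes and bars are medians. The medians of the lists are small, with 0.09 for the other regulators of trophoblast stem cells and -0.04 for differentiated trophoblast, beside the spread of single genes.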

How the data were processed

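Biotinylated cRNA of 3 NT-ESC lines and 1 iPSC clone was read on Affymetrix mouse arrays, per the labels' protocols; the sources used here do not name the authors' summarisation. The deposited log2 values behave as log2 of a ratio: 2 raised to a value averages 1 on each array and runs from 0.422 to 2.03, as when a log intensity is divided by its array mean. Levels were rebuilt as that ratio times an assumed mean of 7. Of 45101 probe sets, 64 were controls; 34945 carried 1 gene symbol, 932 more than 1 and 9160 none, and genes were read from the first kind alone, 34741 of them with a symbol in the RefSeq table.

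Lines and clone were compared with limma 3.58.1 (R 4.3.3) over all 45037 probe sets, two-sided, at a Benjamini-Hochberg threshold of 0.05, with 2 residual and 3.79 prior degrees of freedom. The lone clone array was assumed to vary like the lines, and having only 4 arrays limits the precision. A test of the fit on simulated data was run. Members and lists were chosen with earlier results of these data known. From each other list the text names up to 4 genes, those with the largest difference among genes whose mean level reached the olfactory receptor limit. Alternatives were other assumed means, the deposited values, quantile normalization, 1 value per gene, no dim probe sets, a variance trend, other limits and each line left out.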

Additional observations from a re-analysis of the deposited data

How the results depend on the processing

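No probe set passed limma's test at a Benjamini-Hochberg threshold of 0.05 under any alternative run. Every fit had 1 clone array, and the number of members tested changed with the setting, so unadjusted counts are not compared between settings. Of 193 member differences under the alternatives, 185 kept their direction, 1 was exactly 0 (Tead4 1460683_at with the deposited values) and 7 turned. Many of the 185 could not turn. Other assumed means only scale a difference. The variance trend, the removal of dim probe sets and the brightest probe set per gene leave it unchanged. Tead4 1460683_at was -0.00429 with quantile normalization, and with the mean of probe sets per gene Gata2 was 0.0166 and Hand1 0.0173. Leaving out 1 line gave -0.0261 to 0.0158 for Tead4 1460683_at, -0.0887 to 0.000152 for Elf5 1419556_at and -0.0978 to 0.0344 for Hand1 1417525_at. Members 1.5-fold from the clone numbered 1 in line 3 with an assumed mean of 6, where differences shrink by construction, and 2 in line 1 and 3 in line 3 with the mean at the 16-bit limit, where they grow. Genes above the olfactory receptor limit numbered 2 when all probe sets of a gene had to pass, Tfap2c and Eomes. No paired analysis was possible, because the clone has 1 array and all 3 lines derive from that clone.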

Other observations

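Among relatives of the regulators, the T-box gene Tbx3, a factor of naive pluripotency, had 9.68, 9.64 and 9.50 in NT-ESC lines 1, 2 and 3, against 9.12 in the iPSC clone, and Zfpm1, a cofactor of GATA factors, had 7.75, 7.71 and 7.92 in the lines, against 7.31 in the clone. Every line was above the clone for both, and neither passed limma's test (Benjamini-Hochberg adjusted p = 0.849 and 0.849). Cdx1, chosen after its values were seen, had 6.74, 6.41 and 6.50 in the lines, against 6.17 in the clone, below the olfactory receptor limit on every array and opposite in direction to Cdx2 1422075_at. In the germ cell list, to which Tfap2c is also relevant, 9 measured genes had a median log2 difference of 0.04. At an unadjusted p under 0.05 (limma) 1 was higher and 1 lower, against 3.26% and 1.9% of all genes. Ddx4, a germ cell helicase gene, had 8.98 to 9.08 in the lines, against 8.70 in the clone. Kit had 9.50 to 9.81, against 9.37, and Prdm14 8.76 to 9.03, against 8.67. Ifitm1 had 9.52 to 10.71 in the lines, against 10.56 in the clone, and Prdm1 had a negative difference, -0.31. The range over the 4 arrays had a median of 0.298 for the member probe sets, against 0.192 over all.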
